A study of Rattus norvegicus with 180 samples.

Results

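The microRNAs (miRNAs) miR-146a, miR-146b and miR-155 were taken by name from the probe annotation of an 8×15 k rat miRNA array, and 2 of the 3, miR-146a and miR-146b, were among the 717 miRNAs read from it. miR-155 (rno-miR-155) was not analysed here and is named only. All values below describe miR-146a (rno-miR-146a) and miR-146b (rno-miR-146b), each measured by 2 probe sequences with 10 spots apiece on every array, across 55 organs and tissues of the rat.

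A miRNA guides the silencing complex to messenger RNAs that pair with it, and the protein output of those messengers falls. miR-146a is transcribed from a gene that the transcription factor NF-κB switches on after Toll-like receptor signals. It represses IRAK1 and TRAF6, signalling proteins of the same pathway, so that it acts as a brake on inflammatory signalling in macrophages and lymphocytes. miR-146b is encoded at a separate locus and carries the same seed, the stretch of bases that pairs first with a target, while miR-155 is induced by the same stimuli and is known for promoting immune activation.

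The mature sequences are shown because they bear on how far the probes can tell both members apart. They are given 5′ to 3′ from RefSeq (GRCr8), with the seed (bases 2 to 8) in capitals.
miR-146a: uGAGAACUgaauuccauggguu
miR-146b: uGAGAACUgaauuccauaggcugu
The first 17 bases were identical, and the shared seed GAGAACU was found in 2 of the 724 mature rat sequences of the RefSeq table, these same 2. Counted from 1 at the 5′ end, with the base of miR-146a first, the differences were G18A and U21C, and miR-146b was longer by 2 bases. miR-146a lies at chr10:28350053-28350074 on the minus strand, where its hairpin overlaps the lncRNA gene LOC134480673, and miR-146b lies at chr1:255144874-255144897 on the plus strand, where its hairpin overlaps the protein-coding gene C1h10orf95. The gene table does not say whether these overlaps are exonic or intronic. Cross-hybridisation between both RNAs on the probes was not tested.

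All animals were male Sprague-Dawley rats of 10 weeks. Perfusion with saline, meant to remove blood, was done in 3 rats (rats 4 to 6), which gave 55 organs each, and the other 3 rats (rats 1 to 3) were not perfused and gave liver, kidney, lung, heart atrium and heart interventricular septum. Each organ of each rat was hybridised to 1 array, so that 180 arrays formed 60 groups of 3 arrays. For 8 arrays (medulla oblongata, pituitary gland, 3 levels of spinal cord and 3 muscles) the labels give rat 5 in one field and rat 6 in another, and they were taken as rat 5. Leaving them out changed no call of either member in the contrasts between organs. In the study's organ list the intestines were sampled as mucosal epithelial tissue, and every organ is a mixture of cell types, in which fewer cells of a type and less RNA per cell cannot be told apart.

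Values are scaled signal intensities without a unit: the mean spot signal after background subtraction, scaled so that the 75th percentile of the 37 miRNAs detected on every array was equal. A miRNA was called detected on an array where more than 50% of its spots were well above background. Between 86 and 244 miRNAs were detected per array, the arrays lay on 23 slides, and no spot was saturated. The lymphoid organs carried all 4 leukocyte miRNAs (miR-142-3p, miR-142-5p, miR-150, miR-223) in every rat, and the 6 intestinal organs carried all 4 epithelial miRNAs (miR-200a, miR-200b, miR-200c, miR-141) in every rat. The cervical lymph node of rat 4 stood apart, since its 4 epithelial miRNAs were all detected and summed to 3156, whereas the sums were 44.7 and 46.8, with 0 detected, in rats 5 and 6. The call of miR-146a as higher in lymphoid organs was kept without this array, at 2.21 on the log2 scale.

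miR-146a was present almost throughout the body and was highest in lymphoid organs. It was detected on 162 arrays of perfused rats, in all 3 rats of 54 organs, and on none of the 3 pancreas arrays. Those arrays had a raised detection level, with lowest detected signals of 115 to 273, so that pancreas had only an upper bound and was left out of the order. The remaining 54 organs ran from mesenteric lymph node, at 1228 ± 106 (SD, n = 3), down to cerebellum, at 29.0 ± 6.3 (SD, n = 3), a span of 5.42 on the log2 scale. limma called the differences among organs with an adjusted p of 8.84e-57, as it did for 99.7% of the 345 miRNAs tested. Steps between neighbours in the order were small against the spread between rats, and 52 of the 53 neighbouring pairs overlapped in their 3 values. The exception was the step from cervical spinal cord to pituitary gland.

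miR-146b was distributed in another way. It was detected on 154 perfused arrays, in all 3 rats of 48 organs, in some rats of 5 organs and in no rat for liver and pancreas. The 53 organs with a detected value ran from cecum, at 235 ± 65.2 (SD, n = 3), through lung, sciatic nerve and lumbar spinal cord, down to abdominal aorta, at 11.0 ± 3.2 (SD, n = 3), a span of 4.24 on the log2 scale (limma adjusted p = 1.03e-51). For log2 values, signals below a floor of 10.8 were raised to it, which applied to 1 perfused array of miR-146b. The span of miR-146b ran from 2.40 to 5.40 over the alternatives. Ranges of neighbours overlapped in 49 of 52 pairs. The median coefficient of variation between rats was 14.2% for miR-146a and 14.5% for miR-146b.

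**Figure D1:**
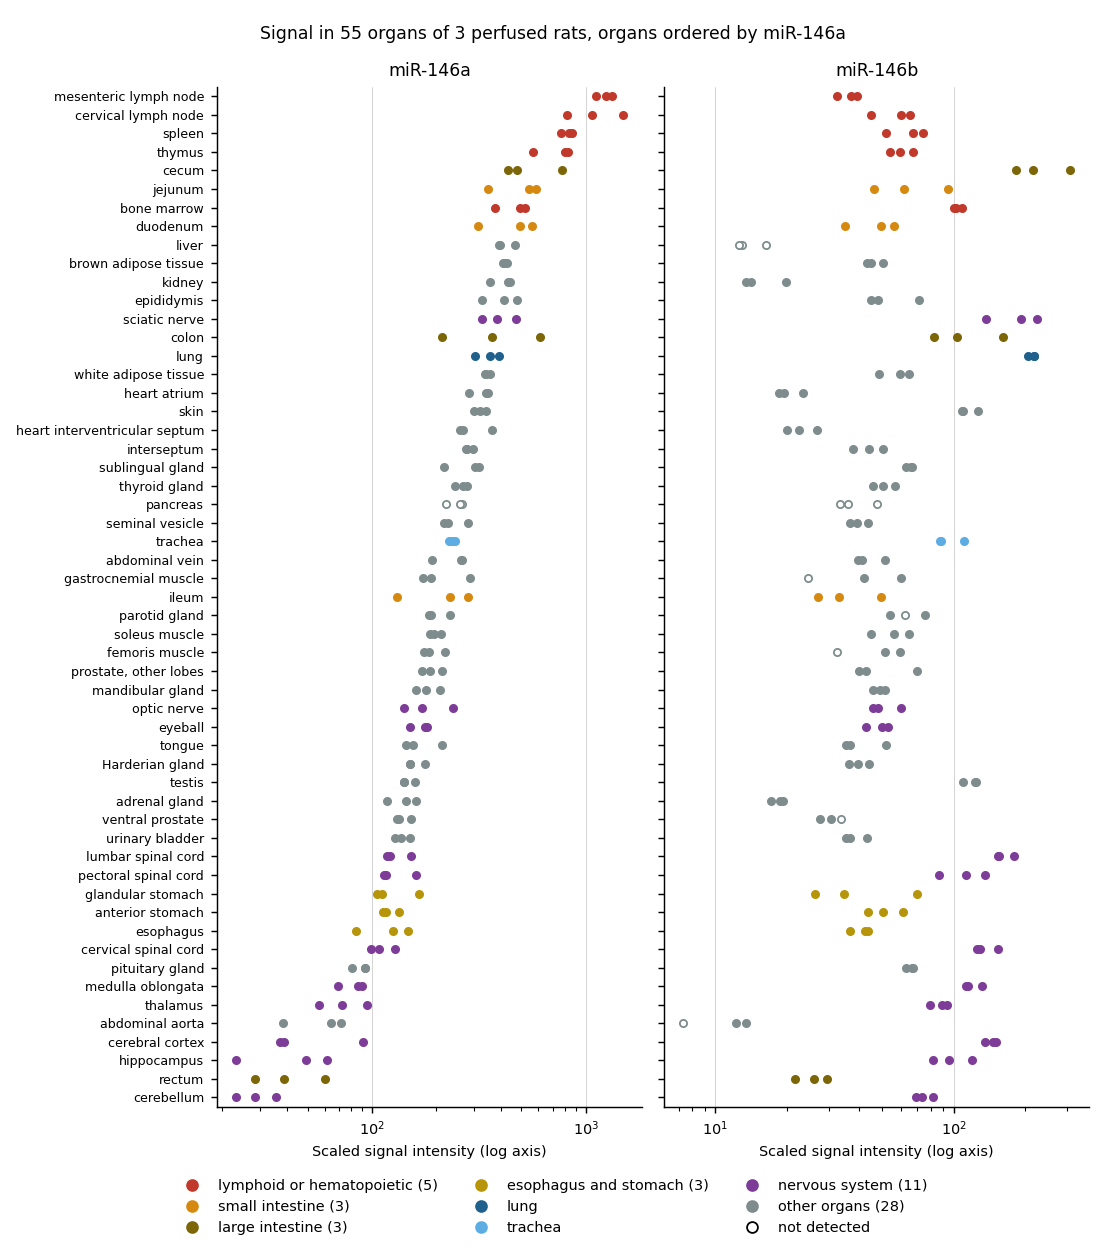
Scaled signal (log axis) of miR-146a and miR-146b in each of 3 perfused rats for 55 organs, ordered by miR-146a and coloured by organ group, with open points for arrays on which the miRNA was not detected. Lymphoid organs, in red, lie within ranks 1 to 7 for miR-146a and 12 to 45 for miR-146b.

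The contrast of both profiles was plain in single organs. Mesenteric lymph node was first of 54 organs for miR-146a and 45th of 53 for miR-146b, with 32.5, 37.1 and 39.1 in rats 4, 5 and 6. Kidney was well supplied with miR-146a, at 442, 358 and 431, while its miR-146b values were 19.8, 13.5 and 14.2, near the bottom of the order. Liver likewise showed 393, 467 and 399 for miR-146a and no detected miR-146b, on arrays whose lowest detected signals were 34.1 to 39.2.

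Brain regions showed the reverse. Cerebral cortex gave 38.7, 37.1 and 90.7 for miR-146a, rank 51 of 54, and 147, 136 and 151 for miR-146b, rank 5 of 53. Cerebellum was last for miR-146a and 16th for miR-146b, at 81.9, 73.6 and 69.6. Sciatic nerve differed from the central nervous system in that both were high, with 328, 382 and 471 for miR-146a and 137, 192 and 223 for miR-146b. These organs were singled out after their values were seen and no test was made on them. Over the 55 organ means of log2 signal, the correlation of miR-146a with miR-146b was -0.01 (Pearson) and -0.02 (Spearman), a description over organs of the same 3 rats.

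**Figure D2:**
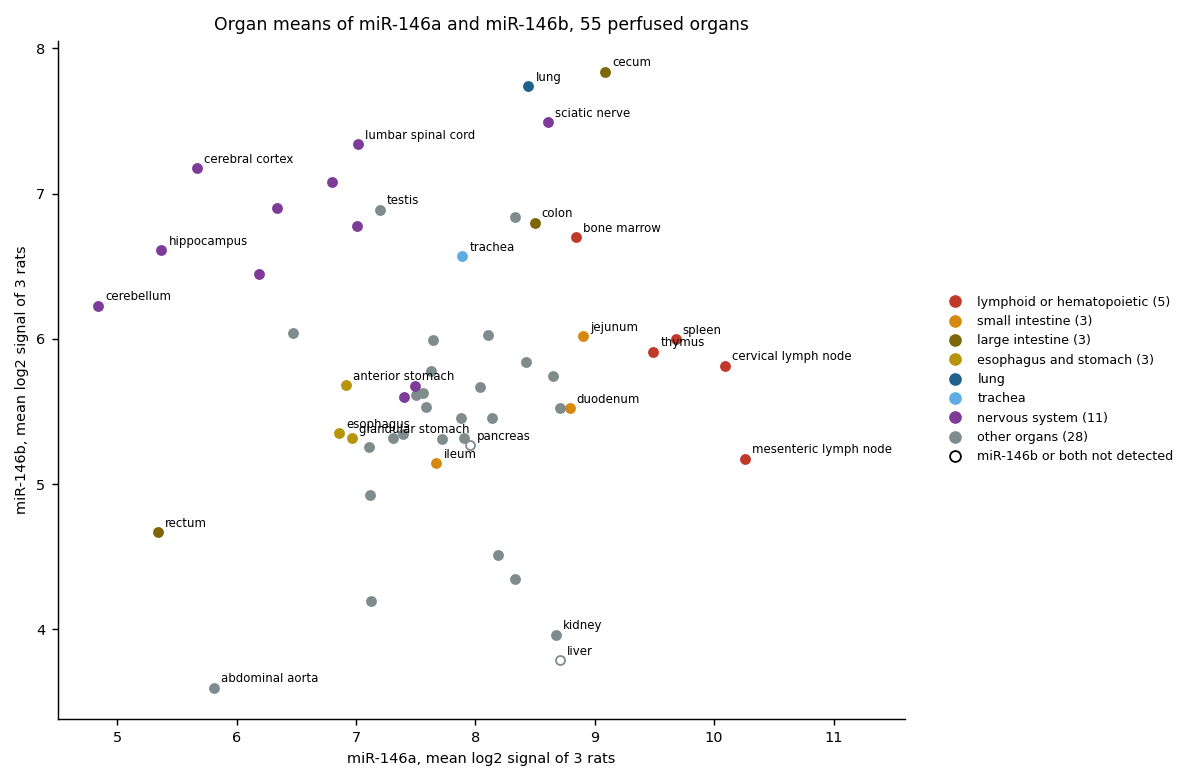
Organ means of log2 signal (3 perfused rats) for miR-146a on the horizontal axis and miR-146b on the vertical axis, 55 organs coloured by group. Lymphoid organs lie to the right, at miR-146b ranks from 12 to 45, brain and spinal cord lie at the upper left, and lung, cecum and sciatic nerve hold the top 3 ranks for miR-146b.

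The lymphoid and hematopoietic organs (cervical and mesenteric lymph node, thymus, spleen, bone marrow) held 4.48 times as much miR-146a as the other 50 organs in geometric means over organs, whereas miR-146b did not pass the test. Cell markers moved in the same contrast, with 4 of 4 leukocyte miRNAs called higher (median 5.32), 2 of 2 red cell miRNAs called higher (median 2.72) and 4 of 4 epithelial miRNAs called lower (median -2.37), and their part in the result was not tested. The red cell miRNAs were called in spleen (median 5.84) and bone marrow (8.12) and not in the other 3 organs, and in thymus the epithelial median was 0.37 with 1 of 4 called lower. The endothelial miR-126 was called higher in the pooled contrast (0.56) and lower in thymus (-1.14), and its part was not tested. The 15 lymphoid arrays ranged from 377 to 1488 with a median of 821 for miR-146a, and the other 150 arrays ranged from 23.2 to 772 with a median of 189, of which 21 reached the lowest lymphoid value. The difference in log2 signal was 2.16 ± 0.09 (SE; limma adjusted p = 1.03e-49), and it was 2.13, 2.14 and 2.22 within rats 4, 5 and 6. Of the 345 miRNAs tested, 91.0% were called in this contrast and 29.9% were called higher, so that the call itself sets miR-146a little apart. Its difference ranked 27th from the highest, beside a median of -0.19 over all miRNAs tested.

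Taking organs rather than arrays as the units, an exact permutation test over every choice of 5 of the 55 organ means gave a two-sided p of 1.93e-05 for miR-146a, and with pancreas at its bound the ratio of geometric means was at least 4.48-fold under this scaling and background, the log2 difference being 1.75 with normexp. Within each of the 11 slides that held both kinds of organ the lymphoid arrays were higher, by 0.68 to 2.49 on the log2 scale.

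For miR-146b the 15 lymphoid arrays ranged from 32.5 to 108 with a median of 60.2, inside the 7.33 to 308 of the other organs, whose median was 50.5. The log2 difference was 0.14 ± 0.08 (SE) with a 95% interval of -0.02 to 0.29, and neither limma (adjusted p = 0.0897) nor the exact permutation over organ means (two-sided p = 0.762) called it. With the undetected liver and pancreas at their bounds it was 0.06. Under 4 alternatives limma did call it higher, by 0.17 to 0.23, and 2 others turned its sign. Within slides, lymphoid arrays were higher on 8 of 11 slides, from -0.52 to 1.26.

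The unequal behaviour of both members was tested as the difference of miR-146a minus miR-146b in log2 signal per array. This quantity was 2.03 ± 0.08 (SE) higher in lymphoid than in the other organs, and an exact permutation over organ means gave a two-sided p of 0.00328. In mesenteric lymph node it was 5.08, with a range of 5.00 to 5.15 over its 3 rats, the highest among the organs in which both members were detected.

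All 5 lymphoid organs carried more miR-146a than the mean of the other organs. The share of all miRNAs called in either direction was 74.2% in cervical lymph node, 76.5% in mesenteric lymph node, 79.1% in thymus, 75.7% in spleen and 78.6% in bone marrow, so that calls were the rule here. The log2 differences were 2.60 in mesenteric lymph node, 2.43 in cervical lymph node, 2.01 in spleen, 1.82 in thymus and 1.16 in bone marrow, each with an SE of 0.18. In rats 4, 5 and 6 the signals were 1113, 1322 and 1248 in mesenteric lymph node, 818, 1064 and 1488 in cervical lymph node, and 493, 377 and 519 in bone marrow. Bone marrow, where blood cells are formed, was thus the lowest of the 5. Its values overlapped with those of cecum, jejunum and duodenum, and of organs outside the gut such as liver, kidney and brown adipose tissue.

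In miR-146b the ends of this order were exchanged. Bone marrow was its highest lymphoid organ, at 102, 101 and 108 in rats 4, 5 and 6, which was 0.92 ± 0.17 (SE) above the mean of the other organs (limma adjusted p = 6.06e-07). Mesenteric lymph node was its lowest, with a difference of -0.63 ± 0.17 (SE) from that mean (limma adjusted p = 0.000559). With slide as a fixed block the bone marrow call was kept at 0.70, and that of mesenteric lymph node was lost at -0.49 (limma adjusted p = 0.0812). Over all alternatives the mesenteric lymph node difference ran from -0.71 to -0.23, with limma adjusted p values up to 0.279, and 21 of 25 gave the same result. Cervical lymph node, thymus and spleen did not pass, at 0.02, 0.12 and 0.21.

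Pairs of lymphoid organs were then compared directly. Of 10 pairs, limma called 5 for miR-146a and 6 for miR-146b. Of all miRNAs, 8.70% were called between both lymph nodes, and for cervical and mesenteric lymph node in turn 13.9% and 14.2% were called against spleen, 31.6% and 35.7% against thymus, and 39.1% and 34.2% against bone marrow. The share was 37.4% for thymus against spleen, 35.9% for thymus against bone marrow and 36.2% for spleen against bone marrow. Mesenteric lymph node exceeded bone marrow by 1.42 ± 0.26 (SE) in miR-146a and fell short of it by a difference of -1.52 ± 0.24 (SE) in miR-146b, and mesenteric lymph node against thymus likewise gave 0.77 for miR-146a and -0.74 for miR-146b. The remaining lymphoid organs also exceeded bone marrow in miR-146a, by 1.25 in cervical lymph node, 0.84 in spleen and 0.65 in thymus (0.41 and not called without rat 5). They were below it in miR-146b, with differences of -0.88, -0.70 and -0.79. Of these calls only that of cervical lymph node in miR-146a was kept under all alternatives. The smallest differences were 0.34 in spleen for miR-146a, and -0.24 in cervical lymph node and -0.28 in thymus for miR-146b. With the 75th percentile over all miRNAs, miR-146b turned to 0.28 in spleen against bone marrow and to 0.12 in mesenteric lymph node against thymus. Cell markers differed widely in the same pairs and their part was not tested: red cell miRNAs had medians of -8.56 in mesenteric lymph node and -8.19 in thymus against bone marrow, and epithelial miRNAs a median of -3.76 in mesenteric lymph node against thymus. Leukocyte miRNAs had a median of 0.53 in mesenteric lymph node against bone marrow, with 2 of 4 called higher and 1 lower. The endothelial miR-126 was called higher in mesenteric lymph node than in thymus (2.44) and lower in thymus than in bone marrow (-2.23). In mesenteric lymph node against bone marrow miR-126 was 0.21 and was not called. Adjusted over the 10 pairs instead of over all miRNAs, 7 pairs passed for each member. Over the alternatives these counts ran from 3 to 8 for miR-146a and from 2 to 6 for miR-146b.

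**Figure D3:**
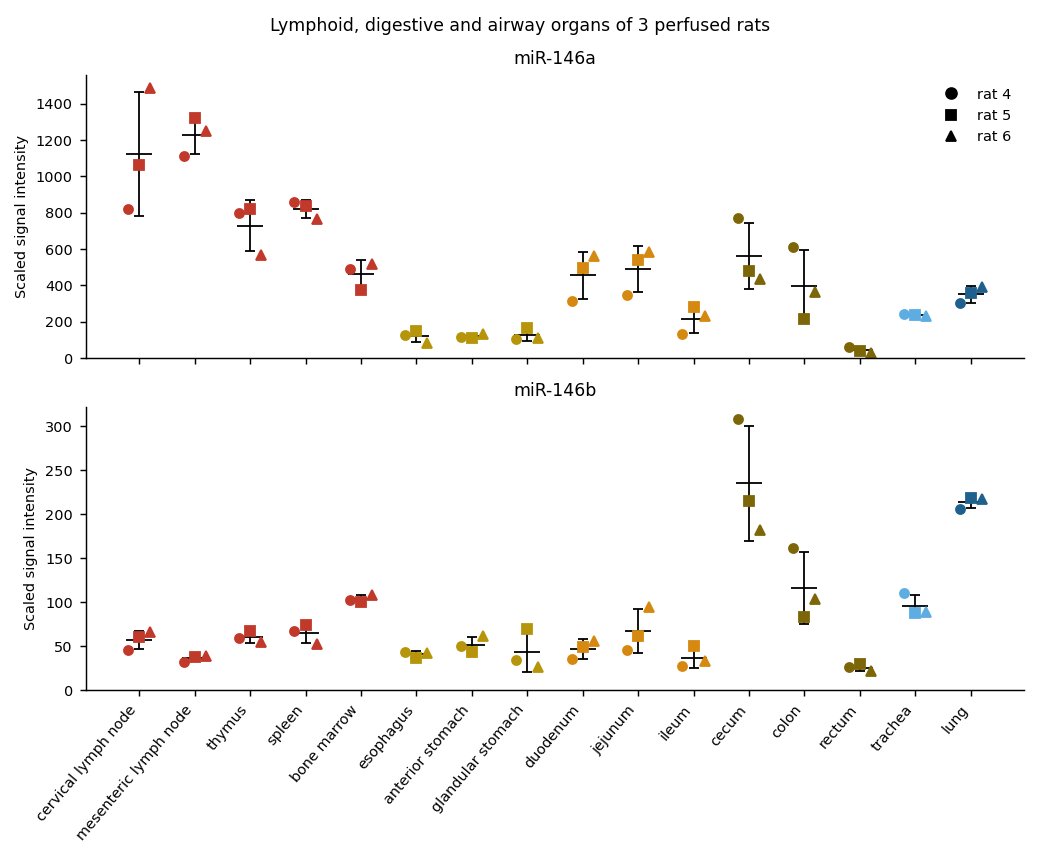
Scaled signal of miR-146a and miR-146b in lymphoid, digestive and airway organs, with 1 symbol per perfused rat, the mean as a horizontal bar and the SD as error bars. The lymph nodes lead for miR-146a, cecum and lung lead for miR-146b, and rectum is low for both.

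The intestine was uneven in both members, and its organs differed more from each other than the intestine did from the rest of the body. Cecum, the blind pouch at the start of the large intestine, gave 772, 477 and 434 for miR-146a in rats 4, 5 and 6, rank 5 of 54, and 308, 214 and 182 for miR-146b, the top rank. Rectum, at the far end of the same tube, gave 60.1, 38.9 and 28.5 for miR-146a, rank 53 of 54, and 26.0, 29.4 and 21.5 for miR-146b, rank 48 of 53. No value of cecum overlapped with a value of rectum in either member.

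The other intestinal organs lay between these. In miR-146a, duodenum gave 312, 494 and 562, jejunum 348, 540 and 585, ileum 131, 280 and 232, and colon 610, 213 and 362. In miR-146b, duodenum gave 34.9, 49.3 and 56.3, jejunum 46.1, 61.9 and 94.99, ileum 26.9, 49.7 and 32.9, and colon 162, 82.9 and 103. Rat 4 was the highest of the 3 in cecum and colon and the lowest in duodenum, jejunum and ileum, for both members.

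Set against the other 49 organs, the 6 intestinal organs were 0.39 ± 0.08 (SE) higher in log2 miR-146a (limma adjusted p = 3.43e-06) and 0.23 ± 0.07 (SE) higher in log2 miR-146b (adjusted p = 0.00244), where 91.3% of all miRNAs were called and 33.9% were called higher. The exact permutation over organ means, every choice of 6 of 55, gave two-sided p values of 0.440 and 0.585, so that neither difference passed with organs as the units. Neither direction was secure: with the value table of the authors the differences were -0.10 for miR-146a and -0.25 for miR-146b, the latter called lower. Under the main scaling, with the undetected liver and pancreas at their bounds, the miR-146b difference was 0.15. Within slides the differences ran from -2.57 to 1.43 for miR-146a and from -0.27 to 0.83 for miR-146b over 5 slides. Without rectum, an alternative chosen after its values were seen, they were 0.93 and 0.49.

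Against esophagus and stomach, the mean of the intestinal organs was higher in both. Of these organs only the intestine was sampled as mucosal epithelial tissue, so that organ and way of sampling cannot be told apart. The 9 arrays of esophagus, anterior stomach and glandular stomach ranged from 84.0 to 166 in miR-146a and from 26.0 to 69.9 in miR-146b. Rectum, at 28.5 to 60.1 in miR-146a, lay below all of them. The log2 differences were 1.14 ± 0.13 (SE; limma adjusted p = 3.63e-14) and 0.55 ± 0.12 (SE; adjusted p = 2.32e-05), and 53.6% of all miRNAs were called here. For miR-146b the sign turned under each of 3 other scalings, to between -0.21 and -0.08, whereas miR-146a kept its call, at 0.43 to 0.55. All 3 slides that held both kinds of organ gave higher intestinal values, by 1.11 to 1.49 for miR-146a and 0.51 to 0.69 for miR-146b. The slide that held all 6 intestinal organs gave 1.11 and 0.69, and the others lacked rectum.

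Large and small intestine separated the members in opposite directions. The large intestine was lower in log2 miR-146a by a difference of -0.81 ± 0.15 (SE; limma adjusted p = 1.10e-06) and higher in log2 miR-146b by 0.88 ± 0.14 (SE; adjusted p = 1.90e-08). Among all miRNAs 40.9% were called, 34.8% lower and 6.09% higher, and miR-146b ranked 9th from the highest of 345. Both calls depended on the processing. That of miR-146a was lost with the 75th percentile over all miRNAs (-0.22, limma adjusted p = 0.359), quantile normalization (-0.31, 0.0912) or the authors' table (-0.26, 0.200). Without rectum the miR-146a difference was 0.34 and was not called, and in rat 4 alone it was 0.33 against -1.41 in rat 5 and -1.36 in rat 6, so that leaving out rat 4, 5 or 6 gave -1.39, -0.52 or -0.54. The miR-146b difference was 1.76 without rectum and was above 0 in each rat, at 1.63, 0.59 and 0.40, with 0.50 left without rat 4, although with normexp it was -0.57 and was called lower (limma adjusted p = 0.00867).

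Within the small intestine, ileum was the poorest in both members. It lay below duodenum and jejunum by log2 differences of -1.17 ± 0.22 (SE; limma adjusted p = 1.00e-05) in miR-146a and -0.63 ± 0.21 (SE; adjusted p = 0.0189) in miR-146b, where 16.5% of all miRNAs were called, 8.99% being lower. The differences were -1.33, -0.88 and -1.30 for miR-146a and -0.57, -0.15 and -1.15 for miR-146b in rats 4, 5 and 6. For miR-146b the call was lost without rat 4 (-0.65), without rat 6 (-0.36), with the first probe sequence alone (-0.61) and with a floor 4 times as high (-0.32).

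Leukocyte miRNAs also differed along the gut, and their part in the miR-146a and miR-146b values was not tested. Their summed signal was 5487, 2406 and 2635 in cecum, 494, 434 and 188 in rectum, 668, 1482 and 1693 in ileum, and 2304 to 4220 in duodenum, for rats 4, 5 and 6. All 4 leukocyte miRNAs were called lower in ileum than in duodenum and jejunum, with a median difference of -1.26 beside 0.00 over all miRNAs, of which 8.99% were called lower. All 4 were called higher in the intestine than in esophagus and stomach (median 2.40), where 53.6% of all miRNAs were called in either direction. There 4 of 4 epithelial miRNAs were also called higher (median 2.86), and 3 of 3 striated muscle miRNAs were called lower (median -3.30). The part of these markers was not tested either. In large against small intestine 2 leukocyte miRNAs were called lower and 2 were not called (median -0.56), where 34.8% of all miRNAs were called lower. Against the other organs 3 leukocyte miRNAs were called higher in the intestine and 1 lower (median 1.65). Of all miRNAs 91.3% were called there and 33.9% were called higher. In that contrast 4 of 4 epithelial miRNAs were called higher (median 5.64). Called lower were 3 of 3 striated muscle miRNAs (median -2.19), 2 of 2 red cell miRNAs (median -0.98) and the endothelial miR-126 (-1.60). The sum of the 4 epithelial miRNAs in rats 4, 5 and 6 was 5340, 12511 and 14794 in cecum, 23986, 18699 and 17197 in duodenum, and 20085, 19847 and 15952 in jejunum, where rat 4 stood at the opposite end from its miR-146a. It was 14900, 18929 and 20178 in ileum, where rat 4 was the lowest in both, and 14910, 16049 and 14886 in colon. In rectum the epithelial sum was 19125 to 23763, the third highest of all organs.

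Lung held the second rank for miR-146b and rank 15 for miR-146a. Its miR-146b signals were 206, 218 and 217 in rats 4, 5 and 6, second to cecum, and only 3 of the 162 arrays of other perfused organs, from cecum and sciatic nerve, reached that level. The log2 difference from the mean of the other organs was 1.98 ± 0.17 (SE; limma adjusted p = 1.90e-20), which ranked 10th from the highest in a contrast where 76.8% of all miRNAs were called and 18.3% were called higher. With liver and pancreas at their bounds, lung was at least 3.76-fold above the geometric mean of the other organs under this scaling and background. The log2 difference was 0.71 with normexp and 3.15 with the 75th percentile over all miRNAs, both called. Within its 3 slides lung was 2.77 to 3.02 above the other arrays, which were largely liver, where miR-146b was not detected, and kidney and heart, which held ranks 52, 50 and 49 of 53.

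In miR-146a, lung gave 302, 356 and 393, rank 15 of 54, and was 0.76 ± 0.18 (SE) above the mean of the other organs (limma adjusted p = 1.68e-04). On its own slides lung was below the other arrays, by log2 differences of -0.46 to -0.15. It shared them with liver, kidney, heart, skin and in part lymph node and brown adipose tissue. Background correction by normexp lowered the difference from the other organs to 0.31, which was not called. It was 1.94 with the 75th percentile over all miRNAs, 1.19 with the authors' table and 1.029 with quantile normalization. The difference of miR-146a minus miR-146b was -1.22 ± 0.18 (SE) in lung relative to the other organs, a value without a p since lung is 1 organ.

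Markers of other cells were also higher in lung than in the other organs, with 4 of 4 leukocyte, 2 of 2 red cell (miR-144, miR-451), 4 of 4 epithelial and 1 of 1 endothelial miRNAs called higher, against 18.3% of all miRNAs. In rats 4, 5 and 6 the red cell sum of perfused lung was 28.4, 433 and 1123 and the leukocyte sum was 918, 1081 and 1283, in the same order of rats as miR-146a. Their part in the lung values was not tested.

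Trachea, the airway leading to the lung, was lower in miR-146b. Its 3 values, 110, 87.8 and 88.4, did not overlap with those of lung, and lung exceeded it by 1.17 ± 0.24 (SE; limma adjusted p = 1.76e-05) on the log2 scale, where 26.7% of all miRNAs were called and 15.1% were called higher. This difference was no longer called with slide as a fixed block (0.79) or with normexp (0.87). In miR-146a, trachea gave 245, 237 and 229, again without overlap, but the log2 difference of 0.56 ± 0.26 (SE) was not called by limma (adjusted p = 0.115), although it was called under 3 alternatives. Leukocyte miRNAs summed to 918 to 1283 in lung and to 553 to 609 in trachea, and the endothelial miR-126 was 3.02 higher in lung on the log2 scale. Of the red cell miRNAs 2 of 2 were called higher in lung than in trachea (median 1.61), and of the epithelial miRNAs 2 of 4 were called lower (median -0.88). The part of these cells in the difference was not tested.

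**Figure D4:**
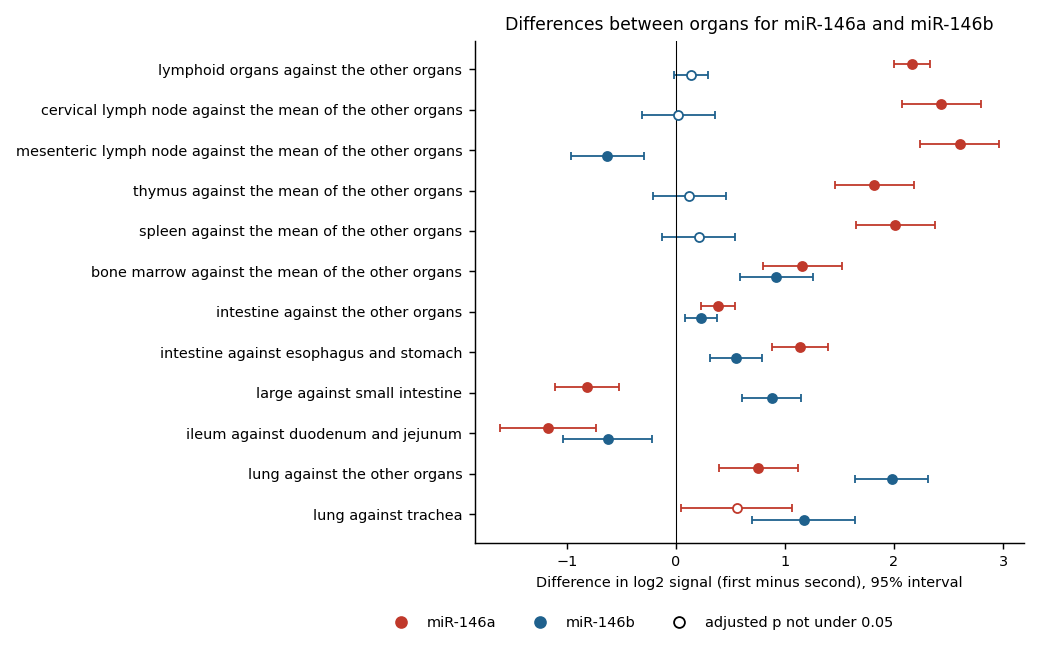
Differences in log2 signal between organs or organ sets with 95% intervals for miR-146a and miR-146b, open where the limma adjusted p was not under 0.05. The pooled lymphoid contrast lies at 2.16 for miR-146a and 0.14 for miR-146b, single lymphoid organs run from -0.63 to 0.92 for miR-146b, and the large intestine contrast has opposite signs.

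Perfusion was compared in the 5 organs taken from both sets of rats, to see how much of the signal came with blood. The unperfused arrays all lay on slides 1 to 3 of scan day 1. Perfused arrays of these organs lay on slides 3, 10 and 16, scanned on days 1, 2 and 3 in turn. Perfusion can therefore largely not be told apart from slide and scan day. miR-146a was 350 ± 45.8 (SD, n = 3) in perfused and 371 ± 56.02 (SD, n = 3) in unperfused lung, and 420 ± 41.0 against 339 ± 62.2 (SD, n = 3) in liver. miR-146b was 214 ± 6.88 in perfused and 176 ± 76.3 (SD, n = 3) in unperfused lung. In liver miR-146b was detected on none of the 6 arrays, so that no comparison can be read there. The groups overlapped in all 5 organs for miR-146a and in the other 4 for miR-146b, and limma called none of them, where 0.00% of all miRNAs were called in lung, 0.580% in liver and 0.290% in each of the others.

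The log2 differences, perfused minus unperfused, lay between -0.08 and 0.32 for miR-146a and, in the 4 organs other than liver, between 0.04 and 0.39 for miR-146b. Their size and sign moved with the processing, down to -0.76 for miR-146a in kidney and -0.89 for miR-146b in kidney over the alternatives, and none was called, the lowest limma adjusted p being 0.0753 for miR-146b in kidney. The exact permutation over 6 rats gave two-sided p values from 0.300 to 1.00, and 3 rats against 3 cannot go below 0.100. The lowest unadjusted p of limma was 0.107, for miR-146b in lung. In the same arrays the red cell miR-451 was lower after perfusion by log2 differences of -3.64 in kidney, -3.38 in septum and -3.30 in atrium, all called, and of -1.48 in liver and -1.33 in lung, which were not. The other red cell miRNA, miR-144, was called lower in liver (-1.29) and was not called in kidney (0.00), septum (-0.25), atrium (-0.23) or lung (0.38). The interaction of perfusion and organ was not called for either member, as it was for 0.580% of all miRNAs.

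Of the 5 miRNAs whose organ profile was most like that of miR-146a, the first 2 were on the leukocyte list. Among 144 miRNAs detected on at least 50% of the perfused arrays, Pearson's r over the 55 organ means of log2 signal was 0.82 for miR-223, a myeloid miRNA, 0.79 for miR-142-3p, found in blood cells in general, 0.68 for miR-92a, 0.63 for miR-20b-5p and 0.61 for miR-15b. The lymphocyte miR-150, also on that list, was 17th, with r = 0.50 and a Spearman's rho of 0.37. The remaining leukocyte miRNA, miR-142-5p, was not among the 144, and its r of 0.70 (rho 0.72) lay above that of miR-92a. With the summed signal of the 4 leukocyte miRNAs, r was 0.77 over 55 organs and 0.70 over the 50 organs that were not lymphoid. The organs share rats, slides and scaling, and these values are descriptions.

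miR-146b had no such close neighbours. Its highest r were 0.52 for let-7i, 0.51 for miR-338, 0.50 for miR-326, 0.48 for miR-103 and 0.45 for miR-218, and its r with the leukocyte sum was 0.17. Lung, cecum and sciatic nerve, at the top of its order, had leukocyte sums of 1094, 3510 and 578.

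**Figure D5:**
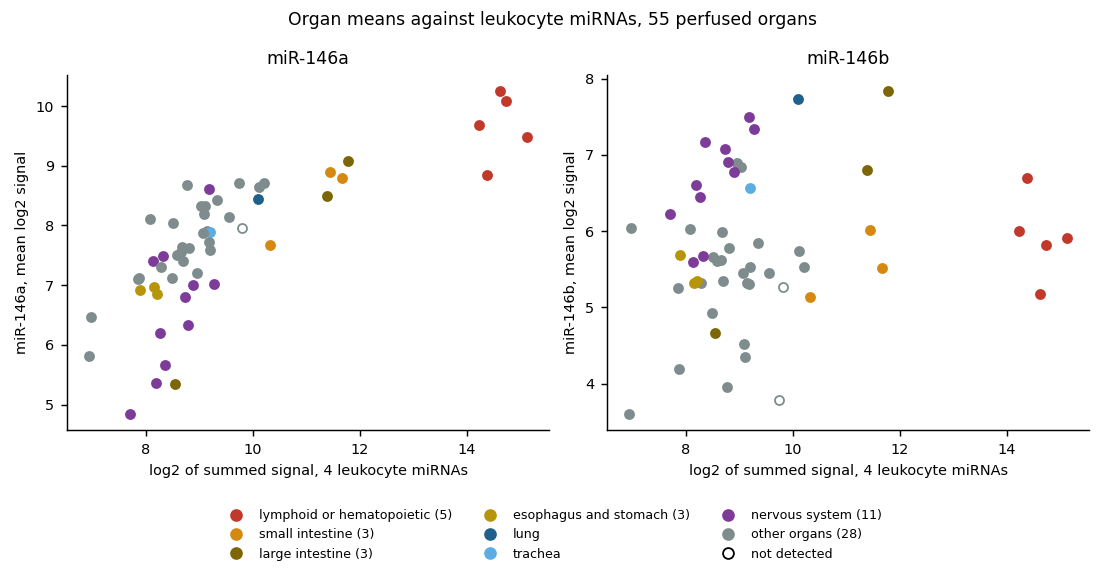
Organ means of log2 signal of miR-146a and miR-146b (3 perfused rats, 55 organs) against the log2 of the summed signal of miR-142-3p, miR-142-5p, miR-150 and miR-223. miR-146a rises from brain to lymphoid organs (r = 0.77), and miR-146b shows no such slope (r = 0.17).

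Other miRNAs tied to NF-κB and immune cells by textbook knowledge (miR-9, miR-21, miR-132, miR-147, miR-125b-5p, miR-181a, miR-181b, miR-223, let-7i) were followed for comparison, and 8 of the 9 passed the filter on detection, miR-147 being left out. In lymphoid organs 5 were called higher and 3 lower, where 91.0% of all miRNAs were called and 29.9% were called higher, and their median log2 difference was 1.01 beside -0.19 over all miRNAs. The higher ones were miR-181a (2.30), known from lymphocyte development, miR-223 (2.22), miR-181b (1.89), miR-21 (1.36) and let-7i (0.65), and the lower ones were miR-9 (-1.75), miR-125b-5p (-1.49) and miR-132 (-0.92). The 2.16 of miR-146a therefore lay among the larger values of the list, and the 0.14 of miR-146b between its higher and lower members.

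In the intestine 2 of these 8 were called higher, miR-21 (2.54) and miR-223 (0.97), and 6 were called lower, where 91.3% of all miRNAs were called and 33.9% were called higher. Their median was -0.78 beside -0.16 over all miRNAs. In ileum against duodenum and jejunum, miR-223 was lower by a difference of -1.17, the value also found for miR-146a, and miR-125b-5p was higher by 0.89, while the other 6 did not pass, where 16.5% of all miRNAs were called and 8.99% were called lower. In lung 3 were called higher, miR-223 (0.90), miR-181a (0.49) and let-7i (0.41), and 4 were called lower, where 76.8% of all miRNAs were called and 18.3% were called higher. The median of the 8 was -0.32 beside -0.27 over all miRNAs.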

How the data were processed

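MiRNA levels were measured with 1-colour Agilent 8×15 k rat miRNA arrays in organs of male Sprague-Dawley rats. The authors scanned the arrays and extracted spot signals with Agilent Feature Extraction 10.7.3, and the deposited intensity values are background-subtracted signals per spot, before any scaling. The deposited value table, which the authors scaled to a 75th percentile, was used only as an alternative; its values were a constant multiple of the scanner's on each array, within 0.0994%, and its direction and linear scale follow from this. Its centring target stays unknown.

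Outlier spots were dropped, the rest were averaged per probe sequence, and the level of a miRNA is the mean over its probe sequences. Each array was scaled to the 75th percentile of the 37 miRNAs detected on all arrays, neither member being among them. Signals below 10.8 were raised to this floor before taking log2. Of 717 miRNAs, 345 passed the detection filter. limma 3.58.1 (R 4.3.3; lmFit and eBayes) was fitted with 1 term per organ and perfusion state over all 180 arrays, with Benjamini-Hochberg adjustment over the 345 and a threshold of 0.05. A miRNA undetected on all 3 arrays of an organ has only a bound there. Organ sets were also compared by exact permutation of organ means. The fit was tested on simulated data.

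Samples were grouped by their labels. Arrays with the same rat number come from the same animal, so the numbers pair the arrays, except that 8 arrays carry both rat 5 and rat 6 in their labels and were taken as rat 5; the mean correlation of deviations was 0.05 within and -0.03 between rats, and 0.32, 0.12 and 0.24 within the unperfused rats 1, 2 and 3. Alternatives covered scaling, background, floor, filter, probe choice, blocks for rat, slide and scan day, and arrays left out. Normexp used the median spot signal. Members and miRNA lists were chosen with earlier results of these data known; the miRNAs of the most similar profile are the 5 with the highest Pearson's r. Spread between 3 rats, and the number of arrays, limits the precision.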

Additional observations from a re-analysis of the deposited data

How the results depend on the processing

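The lymphoid difference of miR-146a (1.75 to 2.27 on the log2 scale), its 5 calls in single lymphoid organs and the lung difference of miR-146b (0.71 to 3.15) kept direction and call under all 25 alternatives. Rats were paired across organs, and with rat as a replicate block the lymphoid difference of miR-146a was 2.16; this block changed no call. For results that changed, the cause was not tested, and values are log2 differences unless counts are named.

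With the 75th percentile taken over all miRNAs, quantile normalization and the authors' table in turn, intestine against the other organs was 0.043, 0.084 and -0.10 for miR-146a and -0.13, -0.25 and -0.25 for miR-146b, the same in the organ means. In that order, large against small intestine was -0.22, -0.31 and -0.26 for miR-146a, none of them called. For miR-146b, intestine against esophagus and stomach was -0.077, -0.21 and -0.15, thymus against the other organs was -0.37, -0.17 and -0.17, and cervical lymph node against thymus was 0.66, 0.39 and 0.51. The 75th percentile over all miRNAs and the authors' table gave 1.27 and 0.62 for miR-146a in lung against trachea and 0.23 and 0.22 for miR-146b in lymphoid organs. The first of these also gave 0.12 in mesenteric lymph node against thymus and 0.28 in spleen against bone marrow for miR-146b, and called 147 miRNAs in lung against trachea. Of 10 lymphoid pairs, quantile normalization and the authors' table called 8 and 8 for miR-146a and 3 and 2 for miR-146b. These scalings shifted the median of all miRNAs by up to 0.21 in lung.

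Normexp gave, for miR-146a, 0.31 (not called) in lung and 3 pairs. For miR-146b it gave -0.037 in lymphoid organs (organ means too), -0.57 (called lower) in large against small intestine, 0.87 (not called) in lung against trachea, -0.22 in cervical lymph node, -0.39 in spleen, 0.17 in cervical lymph node against spleen, 0.57 in thymus against spleen and 3 pairs. For miR-146a minus miR-146b it gave -0.028 in intestine and -0.41 in lung. It called 159 miRNAs in lymphoid organs, 329 in large against small intestine, 213 in ileum and 111 in intestine against esophagus and stomach. A floor 4 times as high gave, for miR-146b, -0.048 in lymphoid organs (organ means too), -0.32 (not called) in ileum, -0.20 in cervical lymph node, -0.10 in thymus and -0.018 in spleen. Testing only miRNAs detected on at least 50% of arrays called 143 for organ differences, 127 in lymphoid organs, 129 in intestine, 30 in ileum, 115 in intestine against esophagus and stomach and 107 in lung, where fewer miRNAs were tested.

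With slide as a fixed block, miR-146a was 0.88 in thymus against spleen, and miR-146b was 0.79 (not called) in lung against trachea and 0.28 in thymus against spleen, with 2 pairs and 1 lymphoid organ called. Total signal per miRNA gave 0.20 for miR-146b in lymphoid organs, the first probe sequence alone -0.61 (not called) in ileum, and pooling perfused and unperfused arrays 0.60 for miR-146a in lung against trachea. Without rectum, chosen after seeing its values, large against small intestine was 0.34 for miR-146a. Without the cervical lymph node of rat 4, miR-146b in lymphoid organs was 0.17 and was called, cervical against mesenteric lymph node was 0.039 for miR-146a, and cervical lymph node against thymus was 0.063 for miR-146b.

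Leaving out each rat or that lymph node in turn gave 3 to 6 pairs and -0.38 to 0.039 in cervical against mesenteric lymph node for miR-146a. For miR-146b it gave 0.11 to 0.18 in lymphoid organs, -0.86 to -0.36 in ileum, -0.12 to 0.18 in cervical lymph node, -0.28 to 0.063 in cervical lymph node against thymus and -0.44 to 0.017 in cervical lymph node against spleen. It gave 34 to 59 miRNAs called in ileum, the lowest without rat 4.

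Signal over background limits miR-146b, which was below the detection level in liver and was detected in only some rats of 5 organs, and pancreas holds only bounds for both members. Each organ is 3 rats, slides held few organs each, and the probes' ability to separate both members was not tested.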

Other observations

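Organs of the nervous system held ranks 3 to 32 for miR-146b and ranks 13 to 54 for miR-146a. Over the 11 organs of the nervous system, sciatic nerve included, organ means of miR-146b ran from 48.6 to 184 with a median of 111, and those of miR-146a from 29.0 to 394 with a median of 112. The 7 organs with the lowest log2 difference of miR-146a minus miR-146b were all regions of brain and spinal cord, down to -1.51 in cerebral cortex. The star strands miR-146a* and miR-146b*, from the opposite arms of the hairpins, were detected on 0 of 180 arrays. These values were picked after they were seen, and no test was made.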
